A study of Homo sapiens with 8 samples.

Results

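The genes described here are 10 transcription factors of the luminal mammary lineage: FOXA1, GATA3, SPDEF, TFAP2A, TFAP2B, TFAP2C, ELF3, EHF, GRHL2 and TRPS1. They were chosen by name, as the rows of a table of 26475 gene symbols that carry these symbols, and all 10 symbols were found. RNA had been sequenced from 8 libraries of BT474, a line derived from a human ductal breast tumour that carries extra copies of ERBB2. Of these, 4 carry the label NPY1R high and 4 the label NPY1R low, after NPY1R, the gene of the neuropeptide Y receptor Y1. All 8 share the cell line, the source and the culture protocol, and the labels name no drug, genetic change or time for either group. How the cells of a group were obtained is not given in the sources used here. Nothing in the labels says that the libraries came from separate cultures, so p-values measure the spread between these libraries, which may be technical. In bulk RNA, fewer cells with a transcript and less of it per cell cannot be told apart.

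Luminal cells line the ducts and lobules of the breast, and most hormone receptor positive tumours keep their program. FOXA1 is a forkhead protein that binds compacted chromatin and opens it for the estrogen receptor, and GATA3, a zinc finger protein, is needed to form and keep the luminal lineage. TRPS1 carries a GATA-type zinc finger but acts mainly as a repressor. SPDEF, ELF3 and EHF are epithelial members of the ETS family, TFAP2A, TFAP2B and TFAP2C are AP-2 proteins, and GRHL2 is a grainyhead-like factor that maintains epithelial junction genes.

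Total expected counts (the estimated reads of all genes) ranged from 18025648 to 30609791 per library. NPY1R itself had 699.3 to 1049 CPM (counts scaled to library size) in NPY1R high and 90.8 to 103.7 CPM in NPY1R low, in the direction of the labels. Markers of luminal epithelium (KRT7, KRT8, KRT18, KRT19, EPCAM and CDH1) summed to between 4447 and 5617 CPM in every library. The basal and myoepithelial markers KRT5, KRT14, KRT17, TP63, ACTA2, MYLK and CNN1 summed to at most 10.7 CPM, most of it TP63, and KRT14 and CNN1 had no count. Leukocyte markers summed to at most 2.07 CPM, endothelial markers to at most 18.2 CPM, most of it VWF, and fibroblast markers to at most 17.5 CPM, most of it COL1A1. The sum of the 6 mesenchymal markers VIM, CDH2, FN1, ZEB1, ZEB2 and TWIST1 differed between the groups, and most of it was VIM. It ranged from 55 to 73.8 CPM for NPY1R low, against 135 to 162.2 CPM for NPY1R high. VIM and TWIST1 were higher in NPY1R high without overlap, as was ZEB1 at a mean of only 0.561 CPM. CDH2 and FN1 overlapped between the groups, with log2 changes of -0.14 and 0.27, and ZEB2 had 1 count in all. The part of these markers in the results below was not tested.

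The luminal factors changed in both directions. GATA3 rose 1.51-fold in NPY1R high, while FOXA1, ELF3 and EHF fell to 0.855, 0.843 and 0.786 of their level in NPY1R low. SPDEF, TFAP2A, TFAP2C, GRHL2 and TRPS1 were not called. TFAP2B had only 4 counts in all libraries together and did not pass the filter on low counts, which the other 9 passed. Calls are from edgeR's quasi-likelihood test at a Benjamini-Hochberg adjusted p below 0.05, over all 14008 tested genes. So 4 of the 10 factors were called, 1 higher and 3 lower, where 13.6% of all tested genes were called, 5.78% as higher and 7.81% as lower. Among the 5951 tested genes with a mean CPM at or above that of GATA3, the tested factor with the lowest level, 16.2% were called. The CPM of the groups did not overlap for 6 of the 10 factors, 4 lower and 2 higher, against 20.2% of all tested genes, 11.4% lower and 8.77% higher. The median log2 change was -0.23 over the 9 tested factors and -0.03 over all tested genes. It was -0.06 over the 10 factors with no filter on low counts, which takes in TFAP2B.

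Of all calls, 42.5% were higher in the main fit, whose TMM reference was NPY1R low replicate 4 (TMM is a trimmed mean of log ratios). The share was 49.5% to 53.1% with each other library as the reference, 54.0% with library totals and 56.3% with upper-quartile factors. The falls of FOXA1, ELF3 and EHF and the rise of GATA3 kept their direction in these. With each other reference the falls were smaller than in the main fit. The log2 changes were then -0.20 to -0.19 for FOXA1, -0.22 to -0.21 for ELF3 and -0.32 to -0.31 for EHF. The rise of GATA3 was then larger, at 0.62 to 0.64. The count of called factors depended on single libraries and on scaling. It was 1 without NPY1R high replicate 4 and 2 without NPY1R high replicate 2 or 3 or NPY1R low replicate 1 or 3. With upper-quartile factors in place of TMM, GATA3 was the only factor called.

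**Figure D1:**
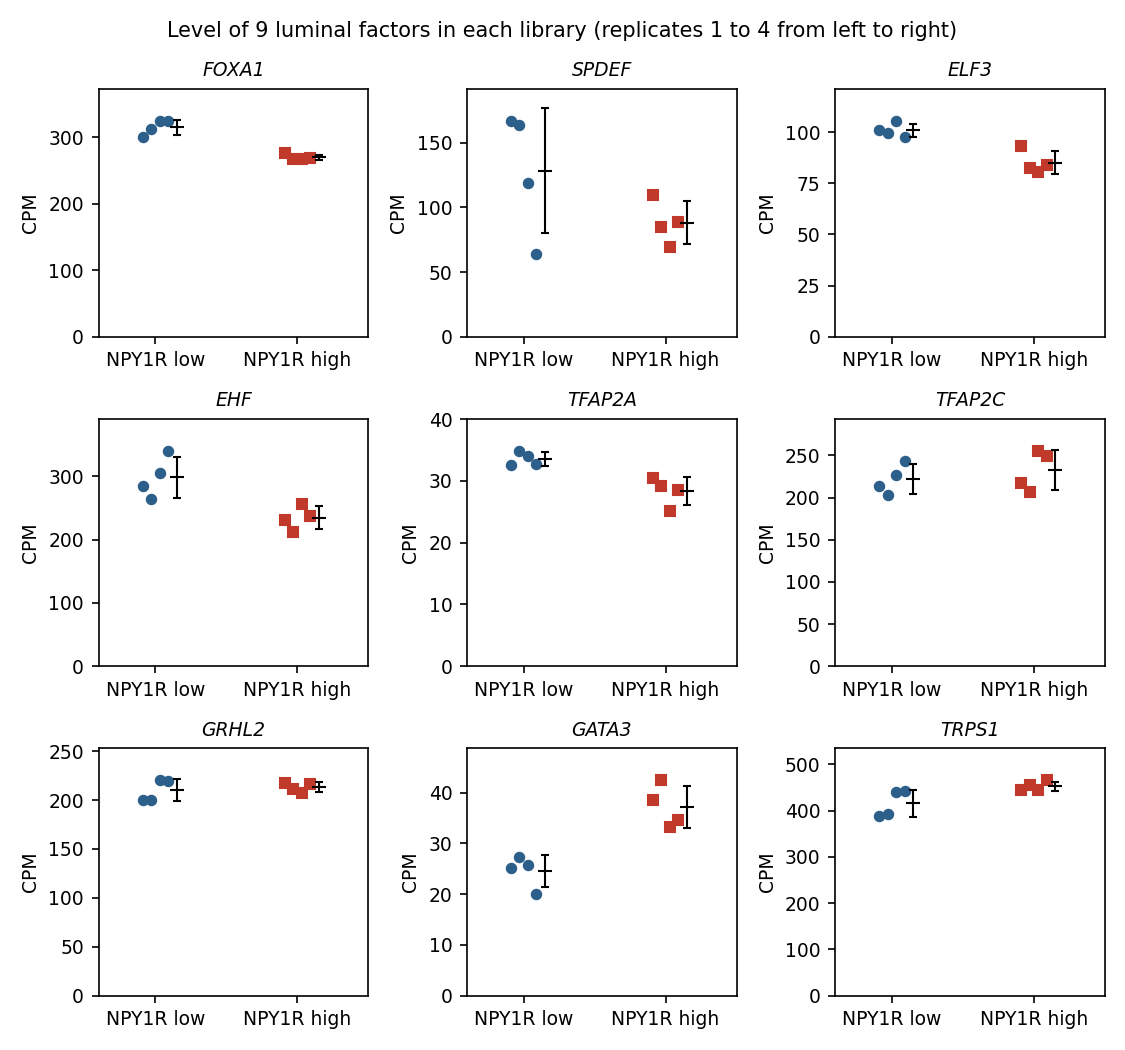
CPM of the 9 tested factors in each library (vertical axes, each from 0), with NPY1R low as blue circles and NPY1R high as red squares, and the mean and SD of 4 libraries in black. GATA3 lies higher and FOXA1, ELF3 and EHF lie lower in NPY1R high with no overlap, and SPDEF spreads from 63.7 to 166.5 CPM within NPY1R low.

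**Figure D2:**
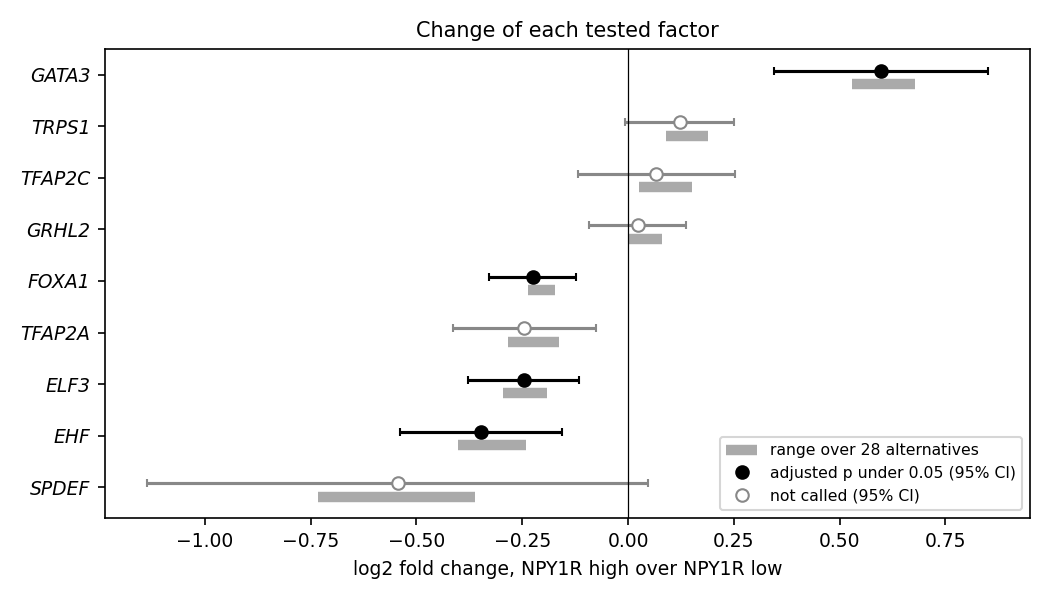
Log2 fold change of NPY1R high over NPY1R low for the 9 tested factors (horizontal axis), with 95% confidence intervals as capped lines and the range over 28 alternative analyses as grey bars. GATA3 stands at 0.60, and the intervals of the 4 called factors (filled points) exclude 0, as does that of TFAP2A, which was not called after adjustment.

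FOXA1 had 276.4, 267.5, 266.9 and 269.2 CPM in NPY1R high replicates 1 to 4. In NPY1R low replicates 1 to 4 it had 300.6, 313.5, 324.4 and 324.4 CPM. Every NPY1R high library lay below every NPY1R low library, and the libraries within a group lay close together. The means were 270 ± 4.37 and 315.7 ± 11.3 CPM (SD, n = 4 each), a log2 fold change of -0.23 (SE 0.05), and edgeR's quasi-likelihood test gave an adjusted p of 0.00891. The fall was small, and its 95% interval ran from -0.33 to -0.12 on the log2 scale. Adjusted p rose to 0.0632 without NPY1R high replicate 3 and to 0.0677 without NPY1R high replicate 4, and to 0.178 with each library's trend on transcript GC content removed, where the log2 change was -0.21 and its SE 0.10. FOXA1 lies on chromosome 14 (37589984 to 37596059, minus strand; GRCh38, GENCODE release 29), where it overlaps TTC6 on the other strand. The FOXA relatives FOXA2 and FOXA3, known from liver and pancreas, had 3 and 1 counts over all libraries.

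GATA3 moved the other way. It had 38.5, 42.4, 33.3 and 34.6 CPM in NPY1R high replicates 1 to 4 and 25.2, 27.4, 25.7 and 20.03 CPM in NPY1R low replicates 1 to 4. The lowest NPY1R high library stood above the highest NPY1R low library. GATA3 averaged 37.2 ± 4.13 and 24.6 ± 3.18 CPM (SD, n = 4 each), with a log2 fold change of 0.60 (SE 0.11), a 95% interval of 0.34 to 0.85 and, from edgeR's quasi-likelihood test, an adjusted p of 0.00616. It was called higher under each of the 28 alternatives, with log2 changes of 0.53 to 0.68. The ratio of GATA3 to FOXA1 CPM within a library was 0.125 to 0.159 in NPY1R high and 0.0618 to 0.0874 in NPY1R low. GATA3 spans 8045378 to 8075203 on the plus strand of chromosome 10. Its divergent long non-coding RNA GATA3-AS1 had 39 counts over the 8 libraries, too few to test.

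The start regions of FOXA1 and GATA3, which moved in opposite directions, are shown as a description. Their part in these changes was not tested. They are RefSeq sequences (GRCh38.p14) upstream of an annotated start, 5′ to 3′, on the strand of the gene. Bases in exons of coding transcripts were left out, and 99 of the FOXA1 bases lie in an exon of a non-coding FOXA1 transcript. EHF, the factor with the largest fall among the called ones, is added. Capitals mark matches on either strand to 5 sets of letters, and no matches overlapped. The forkhead letters were TGTTTNC. For the GATA family the search used AGATAA, and for the ETS family CCGGAAG. For AP-2 proteins it used GCCNNNGGC, and for grainyhead-like proteins AACCNGTT.
FOXA1, chr14:37595250-37595499, minus strand: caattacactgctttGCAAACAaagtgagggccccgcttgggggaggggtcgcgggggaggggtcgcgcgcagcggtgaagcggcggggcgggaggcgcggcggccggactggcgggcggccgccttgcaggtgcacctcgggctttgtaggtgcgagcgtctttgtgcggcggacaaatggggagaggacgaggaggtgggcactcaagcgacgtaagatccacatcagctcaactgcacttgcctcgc
GATA3, chr10:8054438-8054652, plus strand: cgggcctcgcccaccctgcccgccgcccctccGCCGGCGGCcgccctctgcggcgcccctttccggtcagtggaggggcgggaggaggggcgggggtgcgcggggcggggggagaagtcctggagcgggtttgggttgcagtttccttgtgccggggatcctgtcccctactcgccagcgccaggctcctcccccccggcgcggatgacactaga
EHF, chr11:34624007-34624256, plus strand: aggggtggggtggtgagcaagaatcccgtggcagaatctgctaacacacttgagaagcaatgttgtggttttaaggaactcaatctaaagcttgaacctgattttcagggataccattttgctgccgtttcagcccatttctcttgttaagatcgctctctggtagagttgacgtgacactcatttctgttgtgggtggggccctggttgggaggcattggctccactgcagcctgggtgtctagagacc
The FOXA1 window held 1 forkhead match and the GATA3 window 1 AP-2 match, and the EHF window held none. Forkhead letters occur in 15.5% of 34943 RefSeq start regions of the FOXA1 window's length, and AP-2 letters in 16.9% at the length of the GATA3 window. GATA letters occur in 9.19%, ETS letters in 8.48% and grainyhead-like letters in 1.49% of regions of 250 bases. A match describes letters and is no binding site. GATA3 has 6 start regions and EHF 2 in the table, and counts per gene do not show which start was used. The table held start regions for 7 of the 10 factors. The ELF3 window lay within an exon of another ELF3 transcript and is not shown.

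Of the epithelial ETS factors, ELF3, which drives epithelial differentiation genes, had 93.2, 82.6, 80.3 and 83.8 CPM in NPY1R high replicates 1 to 4. Its NPY1R low libraries had 101.1, 99.6, 105.3 and 97.4 CPM. The groups did not overlap, although NPY1R high replicate 1 came within a few CPM of the lowest NPY1R low library. The means of ELF3 were 84.9 ± 5.67 and 100.8 ± 3.31 CPM (SD, n = 4 each), and the log2 fold change was -0.25 (SE 0.06; adjusted p 0.0199, edgeR's quasi-likelihood test). The call was lost in 5 of the 8 fits that left out a library, those without NPY1R high replicate 2 (adjusted p 0.0634), 3 (0.0886) or 4 (0.103) or NPY1R low replicate 1 (0.0764) or 3 (0.0659).

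EHF, a close relative of ELF3, had 231.6, 211.9, 256.9 and 237.9 CPM in NPY1R high replicates 1 to 4 and 284.9, 263.4, 304.8 and 340.2 CPM in NPY1R low replicates 1 to 4. The highest NPY1R high library and the lowest NPY1R low library were close. EHF averaged 234.6 ± 18.5 and 298.3 ± 32.6 CPM (SD, n = 4 each). Its log2 fold change was -0.35 (SE 0.09; adjusted p 0.0237, edgeR's quasi-likelihood test), with a 95% interval of -0.54 to -0.16. It stayed called in 2 of the 8 fits that left out a library. Adjusted p was 0.0638, 0.0707 and 0.0969 without NPY1R high replicates 1, 2 and 4, and 0.0717, 0.0692 and 0.0641 without NPY1R low replicates 1, 3 and 4. The call also depended on scaling, with an adjusted p of 0.0775 under upper-quartile factors. With NPY1R high replicate 2 or 3 as the TMM reference it was 0.0531 or 0.0505, and EHF stayed called with the other references.

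SPDEF, an ETS factor of secretory epithelium, varied most within a group. It had 109.4, 84.9, 69.0 and 88.8 CPM in NPY1R high replicates 1 to 4, and 166.5, 163.9, 119.1 and 63.7 CPM in NPY1R low replicates 1 to 4. The first 3 NPY1R low libraries lay above every NPY1R high library, and NPY1R low replicate 4 lay below all of them. SPDEF had a log2 change of -0.54 (SE 0.27), a 95% interval of -1.14 to 0.05 and, from edgeR's quasi-likelihood test, an adjusted p of 0.232. Without NPY1R low replicate 4 it was called lower, at -0.73 with an adjusted p of 0.00556. The median GC content of its transcripts was 64.7%, the highest of the 10 factors, against a median of 49.7% over the tested genes. A library's deviation from its group mean was set against GC content across 13644 genes, which are not independent replicates. Spearman's rho was 0.545, 0.49, -0.0607 and -0.64 in NPY1R low replicates 1 to 4. In NPY1R high replicates 1 to 4 it was 0.491, 0.0165, -0.514 and 0.173. The GC offset used deviations from the mean of all 8 libraries instead, so it removes another trend than these values describe. With that trend removed from each library, SPDEF was called lower at a log2 change of -0.48 with an adjusted p of 0.0123. Why SPDEF varied between libraries was not tested. Among ETS relatives, ELF1, ELF2, ELF4 and ELF5 were not called, with log2 changes of 0.18, 0.08, -0.53 and 0.05. ELF3 lies on chromosome 1 (202007945 to 202017188, plus strand), EHF on chromosome 11 (34621093 to 34661057, plus strand) and SPDEF on chromosome 6 (34537802 to 34556333, minus strand).

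The AP-2 family was carried by TFAP2C, which is known to regulate ESR1 and ERBB2. TFAP2C had 217.3, 206.8, 255.5 and 249.5 CPM in NPY1R high and 214.3, 202.6, 226.8 and 243.5 CPM in NPY1R low, replicates 1 to 4 in each. The groups overlapped, and replicates 3 and 4 were higher than 1 and 2 in both. Its log2 change was 0.07, with a 95% interval of -0.12 to 0.25. TFAP2A, its paralog, had 30.5, 29.2, 25.1 and 28.5 CPM in NPY1R high and 32.7, 34.9, 34.1 and 32.7 CPM in NPY1R low. The groups did not overlap, but TFAP2A was not called (log2 change -0.25, SE 0.08; edgeR's quasi-likelihood test, adjusted p 0.0602). It was called lower when replicates 1 and 2 had their own term (adjusted p 0.0277) and with the GC trend removed (0.0484).

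TFAP2A overlaps its antisense partner TFAP2A-AS1, and how reads of the 2 were divided is uncertain. In NPY1R high replicate 1, TFAP2A had 886.7 and TFAP2A-AS1 38.3 expected counts, which add up to 925, and NPY1R high replicate 3 and NPY1R low replicate 4 likewise held fractions with a whole sum. The antisense RNA took 2.38% to 4.36% of the sum in a library, and its own log2 change was -0.00. TFAP2B, the third AP-2 gene chosen, had 3 counts in NPY1R high replicate 3, 1 count in NPY1R low replicate 1 and 0 in the other 6 libraries. A count of 0 is compatible with up to 3 counts, or 0.103 to 0.165 CPM in these 6 libraries. Per kilobase of the median transcript, TFAP2C made up 81.1% to 86.0% of the summed level of these 3 AP-2 genes in NPY1R high and 77.9% to 81.9% in NPY1R low. TFAP2A (10393186 to 10419659, minus strand) and TFAP2B (50818723 to 50847613, plus strand) lie on chromosome 6, and TFAP2C (56629302 to 56639283, plus strand) on chromosome 20. Of the other AP-2 genes, TFAP2D had no count and TFAP2E 20 counts in all.

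GRHL2 had 217.8, 211.6, 207.6 and 216.9 CPM in NPY1R high replicates 1 to 4 and 200.6, 200.3, 220.2 and 219.7 CPM in NPY1R low replicates 1 to 4. The groups overlapped, at 213.5 ± 4.79 and 210.2 ± 11.3 CPM (SD, n = 4 each). The log2 change of GRHL2 was 0.02, with a 95% interval of -0.09 to 0.14. Without NPY1R low replicate 2 its sign turned, at -7.15e-05. The paralog GRHL1, which acts mainly in skin and desmosomes, fell from 123.8 ± 1.26 to 102.9 ± 3.41 CPM (SD, n = 4 each), with a log2 change of -0.27 (adjusted p 0.00341, edgeR's quasi-likelihood test). The difference between these paralogs was not tested. GRHL3 had a log2 change of 0.20 and was not called.

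TRPS1, the most abundant of the 10 by CPM, had 444.1, 454.3, 445.6 and 465.5 CPM in NPY1R high replicates 1 to 4. In NPY1R low replicates 1 to 4 it had 388.1, 393.2, 439.8 and 441.5 CPM. The groups stood apart by under 3 CPM, and NPY1R low replicates 3 and 4 lay near the NPY1R high libraries. TRPS1 averaged 452.4 ± 9.84 and 415.7 ± 28.97 CPM (SD, n = 4 each). The log2 change was 0.12 (95% interval -0.01 to 0.25) for which edgeR's quasi-likelihood test gave an adjusted p of 0.217. It was called under none of the 28 alternatives. TRPS1 (115408496 to 115809673) and GRHL2 (101492432 to 101669726) both lie on chromosome 8.

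Other GATA genes were present in these cells beside GATA3. GATA4, which is best known from heart and gut endoderm, had 36.5, 31.1, 38.4 and 45.9 CPM in NPY1R high and 25.6, 25.5, 23.9 and 21.3 CPM in NPY1R low, replicates 1 to 4 in each. It rose without overlap between the groups, with a log2 change of 0.65 (SE 0.12; adjusted p 0.00448, edgeR's quasi-likelihood test). GATA6, another endodermal GATA factor, fell from 9.05 ± 1.23 to 5.56 ± 0.199 CPM (SD, n = 4 each). This was a log2 change of -0.70 (adjusted p 0.00402, edgeR's quasi-likelihood test). GATA2 had 33.98 to 53.8 CPM in NPY1R high and 30.4 to 56.8 CPM in NPY1R low, a log2 change of -0.00. Per kilobase of the median transcript, GATA4 had 35.7 ± 5.73 in NPY1R high, GATA2 26.6 ± 5.46 and GATA3 20.5 ± 2.28 CPM (SD, n = 4 each). Per kilobase of the longest transcript these were 11.1 ± 1.79, 13.1 ± 2.69 and 11.9 ± 1.32 CPM, so their order depended on the length used. GATA1 had 3 counts in all. In the list of 15 relatives of the factors, 1 rose and 2 fell of 10 tested (all tested genes: 5.78% higher, 7.81% lower). The median log2 change of this list was 0.07, or 0.15 without NPY1R low replicate 4.

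**Figure D3:**
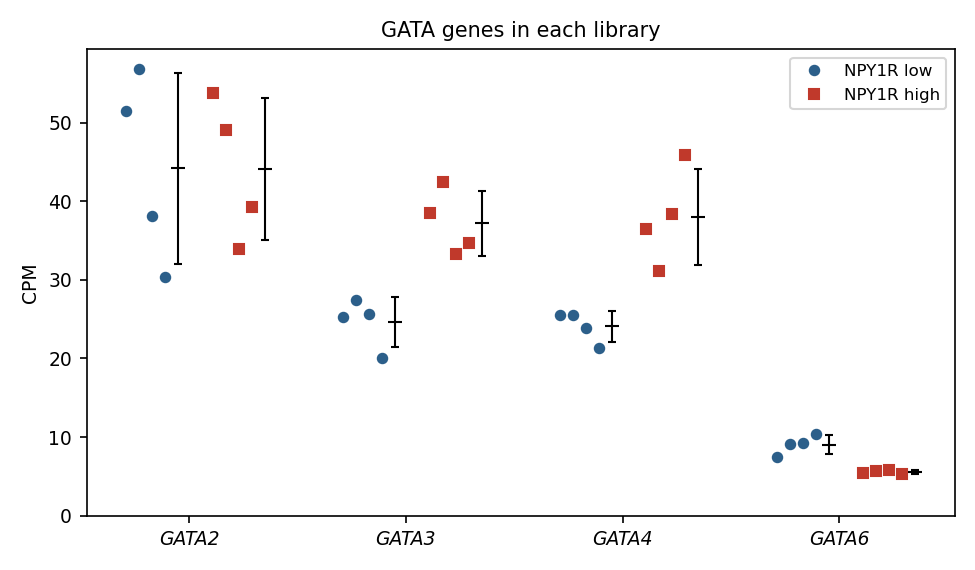
CPM of GATA2, GATA3, GATA4 and GATA6 in each library (vertical axis), with NPY1R low as blue circles, NPY1R high as red squares and the mean and SD of 4 libraries in black. GATA3 and GATA4 lie higher and GATA6 lower in NPY1R high without overlap, and GATA2 overlaps.

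Between genes, levels can be set side by side only per length, and isoform use is not in these counts. Per kilobase of the median GENCODE transcript, the order in NPY1R high was EHF (417.4 ± 33.0), FOXA1 (342.2 ± 5.54), GRHL2 (181.2 ± 4.07), TRPS1 (171.1 ± 3.72), TFAP2C (138.7 ± 14.3), ELF3 (98.9 ± 6.60), SPDEF (46.8 ± 8.84), TFAP2A (27.9 ± 2.26) and GATA3 (20.5 ± 2.28 CPM per kilobase; SD, n = 4). The order was the same in NPY1R low, where EHF had 530.8 ± 58.1 and GATA3 13.6 ± 1.75 CPM per kilobase. Neighbours in that order overlapped in NPY1R low between TFAP2C and ELF3 and between SPDEF and TFAP2A, and in NPY1R high for none. Per kilobase of the longest transcript, FOXA1 came first in both groups, at 94.3 ± 1.53 in NPY1R high and 110.3 ± 3.95 in NPY1R low (SD, n = 4 each). ELF3, GATA3 and TFAP2A were then the 3 lowest, and 6 of 8 neighbours overlapped in NPY1R low. GATA3 and TFAP2A held the last 2 places in both groups on either length.

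When replicates 1 and 2 were given their own term in the fit, 2886 genes were called in place of 1904. Each difference was therefore also read within each subset, where 2 libraries a group allow no test. GATA3 differed by 0.62 on the log2 scale in replicates 1 and 2 and by 0.57 in replicates 3 and 4. FOXA1 differed by -0.18 and -0.28, ELF3 by -0.19 and -0.30, EHF by -0.31 and -0.38, and TFAP2A by -0.18 and -0.32. TRPS1 differed by 0.20 and 0.05. For these 6 genes the groups stood apart in both subsets, which their separation over all 8 libraries already implies. Of all tested genes, 29.9% stood apart in both subsets in 1 direction. SPDEF differed by -0.77 without overlap in replicates 1 and 2 and by -0.21 with overlap in replicates 3 and 4. GRHL2 was 0.10 higher in replicates 1 and 2 and had a difference of -0.05 in replicates 3 and 4, without overlap in either. The labels give no batch, and what the subsets stand for was not tested.

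**Figure D4:**
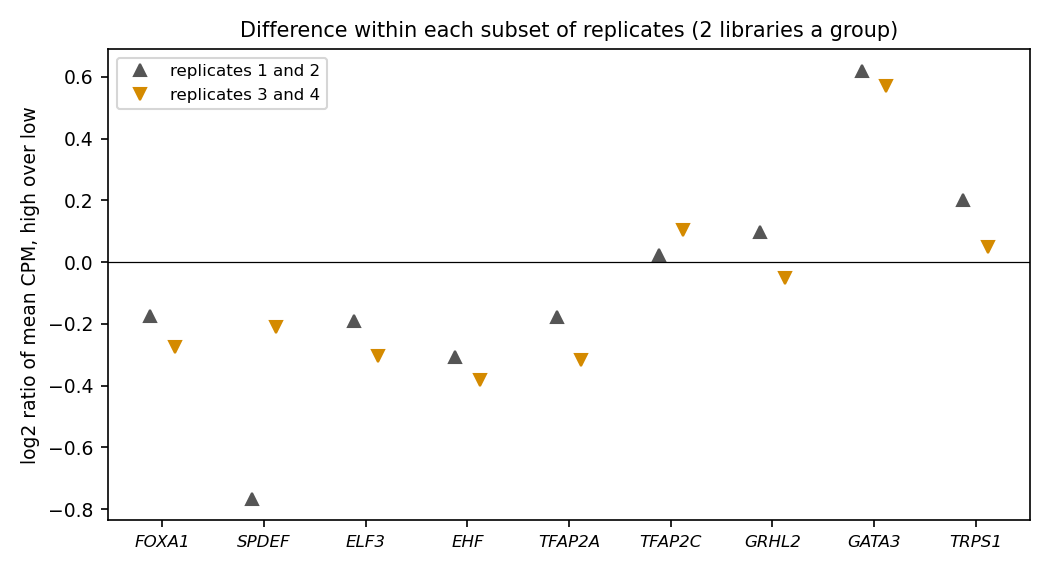
Log2 ratio of the mean CPM in NPY1R high to that in NPY1R low for each tested factor (vertical axis), from replicates 1 and 2 (grey triangles up) and replicates 3 and 4 (orange triangles down). GATA3 keeps its size in both, at 0.62 and 0.57, SPDEF differs most between them, and GRHL2 lies on either side of 0.

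Among 20 regulators that work with luminal factors, 3 rose and 5 fell of 19 tested (all tested genes: 5.78% higher, 7.81% lower). The count that fell was 3 with any other library as the TMM reference, with library totals or with upper-quartile factors, and 2 to 7 over all alternatives. The median log2 change was -0.01 and turned sign with scaling, ranging from -0.05 to 0.06. Among those that rose were the estrogen receptor gene ESR1, from 70.1 ± 2.93 to 105.4 ± 3.76 CPM, and the progesterone receptor gene PGR, from 659.8 ± 85.8 to 2165 ± 254.3 CPM (SD, n = 4 each). For these, edgeR's quasi-likelihood test gave adjusted p values of 7.23e-05 and 1.13e-05. The log2 change of ESR1, 0.59, was of the size of that of GATA3. Lower were FOXM1, a proliferation factor (log2 change -0.77), TLE3, a corepressor (-0.55), LMO4, a LIM adaptor (-0.52), XBP1, a secretory stress factor (-0.34), and KLF4 (-0.32).

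Luminal secretory genes were spread over both directions, with 3 higher and 6 lower of 16 tested (all tested genes: 5.78% higher, 7.81% lower). Their median log2 change was -0.44. This median was -0.15 with a filter of 1 CPM in 4 libraries, -0.69 without NPY1R high replicate 1 and -0.69 without NPY1R low replicate 2, and 1 gene was higher without NPY1R high replicate 2. SCGB2A2, the mammaglobin gene, fell from 23.7 ± 2.85 to 1.74 ± 0.582 CPM, CEACAM6 from 131.5 ± 14.3 to 38.5 ± 4.26 CPM and the small mucin-like gene MUCL1 from 127.9 ± 11.996 to 44.6 ± 1.20 CPM (SD, n = 4 each). CA12, a carbonic anhydrase known as an estrogen receptor target, rose from 82.5 ± 7.05 to 132.8 ± 3.70 CPM (SD, n = 4 each). AGR2 and TFF1 were not called, with log2 changes of 0.15 and 0.15. Of the keratins KRT7, KRT8, KRT18 and KRT19, 0 of 4 were called by edgeR, 0 had an unadjusted p under 0.05 and 0 were called by DESeq2 or limma-voom. Their median log2 change was -0.06, and 0.02 without NPY1R low replicate 1. The count of keratins called lower was 1 under each of 2 alternatives, the own term for replicates 1 and 2 and the replicate block plus GC offset.

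Of 18 epithelial junction and splicing genes, many of them known to depend on GRHL2, 2 fell and 0 rose, a share near the 13.6% called over all tested genes. EPCAM went from 272.8 ± 13.2 to 221.2 ± 9.40 CPM and ESRP1, an epithelial splicing regulator, from 322.7 ± 15.2 to 268.6 ± 7.01 CPM (SD, n = 4 each), and edgeR's quasi-likelihood test gave adjusted p values of 0.00436 and 0.00619. The list had a median log2 change of -0.18, which was -0.27 without NPY1R high replicate 1, -0.09 without NPY1R high replicate 3 or NPY1R low replicate 2, and -0.07 without NPY1R low replicate 1. Its count was 7 lower without NPY1R low replicate 4, 5 lower with the GC trend removed, 4 lower when replicates 1 and 2 had their own term, and 1 lower without NPY1R high replicate 4. With the replicate block plus GC offset, 6 were lower and 1 higher. CDH1 had a log2 change of -0.16 and an adjusted p of 0.0982. In the mesenchymal list, 2 rose of 6 tested (all tested genes: 5.78% higher). These were VIM, from 54.2 ± 6.89 to 115.4 ± 10.3 CPM, and TWIST1, from 5.31 ± 1.52 to 26.1 ± 0.545 CPM (SD, n = 4 each). ZEB2 had 1 count in all and SNAI2 32. ZEB1 was not called at a log2 change of 0.87, from 0.300 CPM in NPY1R low to 0.561 CPM in NPY1R high. SNAI1, CDH2 and FN1 were not called either, with log2 changes of -0.83, -0.14 and 0.27. Of the basal and myoepithelial list 0 of 7 tested genes were called by edgeR, DESeq2 or limma-voom, and 1, FOXC1, had an unadjusted p under 0.05. By edgeR, 1 gene of the list was called higher at 1 CPM in 4 libraries, with the own term for replicates 1 and 2, with the GC trend removed and without NPY1R low replicate 4. Of the stromal, vessel and blood list 0 of 3 tested genes were called by these tools, and 2, CD68 and VWF, had an unadjusted p under 0.05. Without NPY1R high replicate 4 or NPY1R low replicate 4, 1 gene of this list was called lower.

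Profiles close to those of the called factors were sought among 10433 genes, by the root mean square difference of centred log2 CPM over the 8 libraries. This describes likeness over libraries that share groups, depth and GC trend, and is no test. EHF was nearest to XBP1 (0.0419) and ACSL1 (0.042), where EHF itself spanned 0.683 over the libraries and the median gene differed from it by 0.244. The nearest to GATA3 were DLX3, a homeobox factor (0.0792), and CHST10, a sulfotransferase (0.0807), against a median of 0.377. FOXA1 was nearest to GOSR1 (0.0279) and RAB22A (0.0305), genes of vesicle traffic, and ELF3 to ZNF829 (0.0464) and TRAPPC10 (0.0491). Genes chosen for likeness to a factor move in its direction by that choice. So DLX3 rose from 17.98 ± 2.22 to 27.4 ± 3.55 CPM and XBP1 fell from 1007 ± 87.9 to 797.2 ± 84.8 CPM (SD, n = 4 each). ACSL1 and ZNF829 were not called, with log2 changes of -0.30 and -0.21.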

How the data were processed

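RNA of 8 BT474 libraries was sequenced after a stranded total RNA preparation, per the labels' protocols. The authors deposited unscaled expected counts for each gene symbol. STAR 2.5.2, RSEM 1.3.0 and hg38 are named in the submitters' processing notes, with no role or order. The annotation and the strand setting are not given in the sources used here. Between 7.97% and 8.76% of values in a library were not whole, and expected counts were rounded before any test. Chi-square per degree of freedom between 2 libraries of a group was 5.05 or more in all 12 pairs, and no library was treated as a duplicate. Columns of unmatched samples numbered 0.

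Genes were filtered with filterByExpr (minimum count 10), scaled by TMM and tested with edgeR's quasi-likelihood test with no covariate, adjusted by Benjamini-Hochberg over all tested genes (R 4.3.3, edgeR 4.0.16, limma 3.58.1, DESeq2 1.42.0). CPM used TMM-scaled totals, and log2 CPM a prior count of 2. The GC offset removed a spline with 5 degrees of freedom, fitted in each library to deviations from the mean of all 8 libraries. It can therefore also remove a GC trend that differs between the groups. Of the tested genes, 97.4% had a GC value from GENCODE release 29. The procedure was also run on simulated counts drawn independently for each library, with no GC trend and no difference between replicate subsets. That run cannot show how calls fare where these are present, as in the real libraries. PCR copies were not marked by molecular identifiers, so reads are not independent, and limits from counts of 0 cover counting error only. The confidence intervals of the log2 changes come from edgeR's quasi-likelihood fit. Like the p-values, they measure the spread between these libraries.

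The 10 factors and all lists were chosen with earlier results of these data known. Named were the 10 factors, NPY1R, ESR1, in each other list up to 4 called genes with the largest change at a mean CPM of at least 5, and the 2 genes nearest in profile to each called factor. Other genes were named after their values were seen. 1 gene of the lists is counted but not reported here. Alternatives were other scalings and TMM references, filters, tests, a replicate block, a term for replicates 1 and 2 against 3 and 4, a GC offset, leaving out each library, and a threshold of 0.01.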

Additional observations from a re-analysis of the deposited data

How the results depend on the processing

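Of 656 alternative values of 52 results, 584 were classed as the same. For a fold change this meant the same side of the threshold and the same sign. For a level or a difference within a subset it meant a move smaller than the spread. A count of called genes was the same within a fixed ratio of the main count. That ratio was wide, as 1351 and 2519 called genes both passed as the same as 1904. Over the 28 alternatives GATA3 (28 of 28 called) and ESR1 kept their call and sign. The falls of FOXA1, ELF3 and EHF kept their direction but lost the threshold in 5, 8 and 10 of them, and SPDEF and TFAP2A gained it in 3 and 2. GRHL2 reversed once, to a log2 change of -7.15e-05 without NPY1R low replicate 2, and was at most 0.07972, without NPY1R low replicate 4. The number of called factors was 1 with upper-quartile factors, where FOXA1, ELF3 and EHF had adjusted p values of 0.0619, 0.0554 and 0.0775, and 2 (GATA3 and FOXA1) at an adjusted p under 0.01. Leaving out 1 library at a time, it ranged from 1 to 4. The number of called genes then ranged from 1351 (without NPY1R high replicate 4) to 2132 (without NPY1R low replicate 4). Over all genes, 1904 were called, 2886 once replicates 1 and 2 had their own term, 2993 under replicate block plus GC offset, and 1032 at an adjusted p under 0.01. Of the calls, 42.5% were higher with TMM in the main fit, and 49.5% to 53.1% with each other library as the TMM reference. The share was 54.0% with library totals, 56.3% with upper-quartile factors, 53.2% with no filter and 53.6% at 1 CPM in 4 libraries. The median log2 change of all genes lay between -0.04 and 0.03 over the alternatives. The causes were not tested, apart from the stricter threshold.

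Deviations of same-numbered libraries correlated across genes at 0.339, 0.157, 0.0907 and 0.0178 for replicates 1 to 4. Differently numbered libraries were not compared in this way, so these values cannot decide whether the numbers are pairs. The main fit did not take them as pairs. With the replicate block, 4 factors were called, 1 higher and 3 lower, and 1833 genes in all, 1626 of them among the 1904.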
